A study of Mus musculus with 24 samples.

Results

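Messenger RNA of 10 genes of the JAK-STAT pathway and its feedback arm was followed in mouse B cells: the kinases Jak1, Jak2 and Jak3, the transcription factors Stat3, Stat5a and Stat6, and the inhibitors Socs1, Socs2, Socs3 and Cish. They were taken by symbol from a list made for this pathway, all 10 were found among the 23420 genes of every library, and all 10 passed the filter on low values that left 11885 genes. The 24 libraries come from spleens of BALB/c mice and fall into 8 groups of 3. Germinal center (GC) B cells were taken at an early, a peak and a late stage. One further group was activated in vivo, one was naive, and 3 were cultured for activation in vitro and taken after 4 h, 12 h and 24 h. All groups share strain and organ, no label gives a genetic change, and the labels name no stimulus, immunogen, age, day, animal, culture or sex. The p-values therefore measure only the spread between these libraries, which may be partly technical, and depth per library is unknown. A difference between replicate numbers had been taken out of the deposited values, which the fit behind these p-values (16 residual degrees of freedom) does not count, so they are somewhat too small. With the replicate number as a block (14 residual degrees of freedom) 3 calls on the 10 genes were lost, each named beside its value.

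The cytokine receptors that signal through this pathway have no kinase of their own and carry Janus kinases (JAKs) on their tails. Bound cytokine brings the kinases together, they phosphorylate the receptor and a STAT protein, and the STAT dimer enters the nucleus and switches on genes. Among these genes are the SOCS family and Cish, whose proteins block the kinases or the receptor and have the bound proteins degraded. In B cells, Jak1 and Jak3 serve the receptors that share the gamma chain, such as those for interleukin 4, which acts mainly through Stat6, and interleukin 21, which acts mainly through Stat3. The messenger level measured here does not give the phosphorylated, active state of a kinase or STAT.

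The promoters of the inhibitors that changed most are shown because STAT dimers are known to bind the spaced palindrome TTCNNNGAA and interferon-induced factors the repeat GAAANNGAAA. Both were searched on both strands, with TTCNNNNGAA, in windows of 300 bases (250 before and 50 after the start) given by RefSeq for GRCm38.p6. Of the 10 genes 9 had a window, with 10 windows in all. The first 280 bases are printed, and capitals mark a match. The Socs1 window lies at chr16:10785507-10785786 on the minus strand, the Socs3 window at chr11:117969337-117969616 on the minus strand and the Cish window at chr9:107296409-107296688 on the plus strand.
Socs1: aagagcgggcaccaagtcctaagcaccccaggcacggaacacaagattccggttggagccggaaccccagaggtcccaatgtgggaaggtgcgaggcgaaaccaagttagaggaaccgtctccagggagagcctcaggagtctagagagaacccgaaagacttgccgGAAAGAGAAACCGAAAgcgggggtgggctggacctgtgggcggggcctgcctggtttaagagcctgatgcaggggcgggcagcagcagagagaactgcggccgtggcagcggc
Socs3: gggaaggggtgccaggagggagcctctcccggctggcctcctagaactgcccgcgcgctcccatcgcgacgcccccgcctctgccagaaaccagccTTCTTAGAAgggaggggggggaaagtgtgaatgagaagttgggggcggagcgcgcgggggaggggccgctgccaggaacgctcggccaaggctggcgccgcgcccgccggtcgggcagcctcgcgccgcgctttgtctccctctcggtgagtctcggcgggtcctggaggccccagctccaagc
Cish: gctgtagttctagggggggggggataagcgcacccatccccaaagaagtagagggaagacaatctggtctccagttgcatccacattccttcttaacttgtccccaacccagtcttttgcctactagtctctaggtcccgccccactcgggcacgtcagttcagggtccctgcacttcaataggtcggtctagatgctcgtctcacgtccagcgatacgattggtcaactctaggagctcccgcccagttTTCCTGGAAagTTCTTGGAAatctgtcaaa
Cish held 2 matches to TTCNNNGAA, TTCCTGGAA and TTCTTGGAA, both just after the RefSeq start, and Socs3 held 1, TTCTTAGAA. Socs1 held 2 overlapping matches to GAAANNGAAA and none to either TTC palindrome. The windows of the 6 kinase and STAT genes held none of the 3 motifs. Over all 32851 windows, 8.30% held TTCNNNGAA, 6.95% held TTCNNNNGAA and 3.44% held GAAANNGAAA. These are matches of letters only. The RefSeq starts of Socs3 and Cish lie 681 and 633 bases inside the gene spans of the GENCODE M21 annotation, so other starts exist for both.

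All values below are log2 values as the authors deposited them, on a CPM-like scale (counts scaled to a fixed library total), with the standard deviation (SD) over 3 libraries. Fold changes are log2 differences with their standard error (SE), and each adjusted p is from limma with Benjamini-Hochberg adjustment over all 11885 tested genes. A gene is said to rise or fall where that p is under 0.05. Most genes passed in the comparisons with naive cells, which all share the same 3 naive libraries, so the number of pathway genes that passed is set beside the share of all genes that did.

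The labels were checked against markers. The summed level of 6 B-cell markers was 2530 to 6865 CPM in every library. Of 8 GC markers, the sum was 1621 to 2228 CPM in GC libraries and 59.1 to 149.8 CPM in all others. The Y-linked gene Ddx3y was at 4.77 to 5.75 log2 in the means of naive and in vitro groups and at the floor, -6.18 log2, in GC and in vivo activated groups. The X-linked transcript Xist was at 8.07 to 8.43 log2 in the means of GC and in vivo activated groups, 7.19 in naive cells and 6.69 to 7.22 in the in vitro groups, so naive and in vitro libraries held both transcripts. The make-up of the mice by sex therefore cannot be told apart from group in any comparison of GC or in vivo activated cells with naive cells. Markers of macrophages and monocytes summed to 473 to 2065 CPM in late GC libraries, 114 to 303 CPM in early and peak GC libraries and 6.85 to 44.7 CPM elsewhere.

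Against naive cells, the 10 genes moved in different directions. In GC cells Jak1, Jak3, Stat3, Stat6 and Socs3 fell and Stat5a rose at each of the 3 stages. The number that passed was 6 of 10 in early GC cells (79.7% of all tested genes passed), 7 in peak GC cells (79.7%), 8 in late GC cells (81.6%) and 9 in in vivo activated cells (79.3%). In vitro, 8 passed at 4 h (78% of all tested genes), 9 at 12 h (80.9%) and 9 at 24 h (84.8%). These numbers lie near the share of all genes, so the count is no result about the pathway. The median log2 fold change of the 10 genes was -0.11 in peak GC cells, against 0.01 over all tested genes, and -0.60 in in vivo activated cells, against -0.02. Libraries of the compared groups did not overlap for 80.7% of all tested genes in early GC, 78.7% in peak GC, 80.8% in late GC and 82.3% in in vivo activated cells against naive cells. At 4 h, 12 h and 24 h against naive cells these shares were 81.6%, 85.1% and 86.7%, and each statement below that libraries did not overlap with naive ones is to be read beside them. Every naive library lay above every library of the other groups for 15.8% of all tested genes. How often another group stands apart from all others was not counted, so such statements below are descriptions.

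A change of at least 2-fold was rarer. It was seen for 1 of the 10 genes in early GC cells (33.7% of all tested genes) and 1 in peak GC cells (34.7%), Socs3 in both. It was seen for 3 in late GC cells (36.4%), 3 in in vivo activated cells (33.5%), 6 at 4 h (33.7%), 6 at 12 h (38.9%) and 5 at 24 h (46.7%).

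**Figure D1:**
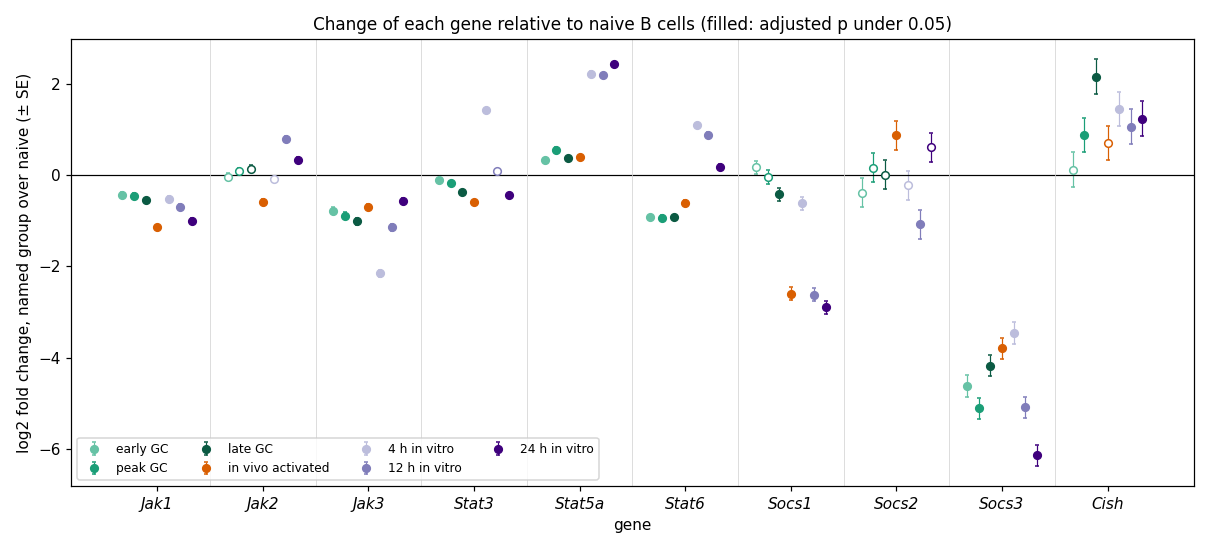
Log2 fold change over naive B cells (y axis, with SE) for each of the 10 genes (x axis) in 7 groups of 3 libraries, shown in color, where a filled point has an adjusted p under 0.05. Socs3 lies below zero in all 7 groups, from -3.46 to -6.13, Stat5a lies above zero in all 7, and the in vitro points of Stat3 and Stat6 lie apart from the GC points.

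Jak1, the kinase used by most cytokine receptors in lymphocytes, was highest in naive cells. Its values were 9.42, 9.49 and 9.57 in early GC, 9.59, 9.49 and 9.35 in peak GC, 9.28, 9.37 and 9.47 in late GC, and 8.75, 8.82 and 8.79 in in vivo activated libraries, against 9.92, 9.94 and 9.91 in naive libraries. Every naive library lay above every other library of the series. In vitro it was 9.40 ± 0.04 at 4 h, 9.23 ± 0.04 at 12 h and 8.92 ± 0.08 at 24 h (SD, n = 3 each), lower at each later time. The log2 fold change was -1.14 ± 0.06 in in vivo activated cells (SE; adjusted p = 8.92e-15), -0.45 ± 0.06 in peak GC cells (adjusted p = 1.22e-07) and at 24 h the level was 2.01-fold lower (adjusted p = 4.74e-14).

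Jak2, the kinase of hormone-like cytokine and interferon gamma receptors, had its highest values at 12 h. They were 7.71, 7.80 and 7.78 in naive libraries, 7.66, 7.61 and 7.75 at 4 h, 8.60, 8.5 and 8.57 at 12 h, and 8.20, 8.12 and 7.96 at 24 h. The 12 h libraries did not overlap with those of any other group. At 12 h the log2 fold change over naive cells was 0.79 ± 0.07 (SE; adjusted p = 5.53e-10), and over 4 h it was 0.88 ± 0.07 (adjusted p = 4.10e-10). Jak2 fell in in vivo activated cells, with 7.18 ± 0.07, against 7.76 ± 0.04 in naive cells (SD, n = 3 each; log2 fold change -0.59 ± 0.07, adjusted p = 1.03e-07). It did not pass in any GC group against naive cells, with log2 fold changes of -0.03 to 0.14.

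Jak3, the kinase that binds the gamma chain itself, fell most at 4 h. It was at 7.36, 7.16 and 7.18 in naive libraries, 5.11, 4.98 and 5.15 at 4 h, 6.07, 6.11 and 6.09 at 12 h, and 6.60, 6.71 and 6.68 at 24 h. The 4 h libraries were the lowest of the series and each later time lay above the one before it. Relative to naive cells the level was 4.45-fold lower at 4 h (log2 fold change -2.15 ± 0.07, SE; adjusted p = 1.04e-17). It then rose at 12 h over 4 h by 1.01 ± 0.07 log2 (adjusted p = 5.97e-11) and at 24 h over 12 h by 0.58 ± 0.07 log2 (adjusted p = 6.20e-07), and was still below naive cells at 24 h (-0.57 ± 0.07, adjusted p = 1.68e-07). In GC cells it was 6.46 ± 0.03 at the early, 6.34 ± 0.19 at the peak and 6.22 ± 0.07 at the late stage, and 6.53 ± 0.07 in in vivo activated cells, all below naive cells at 7.23 ± 0.11 (SD, n = 3 each). The annotation has Jak3 overlapping Insl3, Jak1 overlapping Raver2, Gm12785 and Gm24468, and Cish overlapping Gm17040 and Gm17041. Whether counting used strand is not given in the sources used here.

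**Figure D2:**
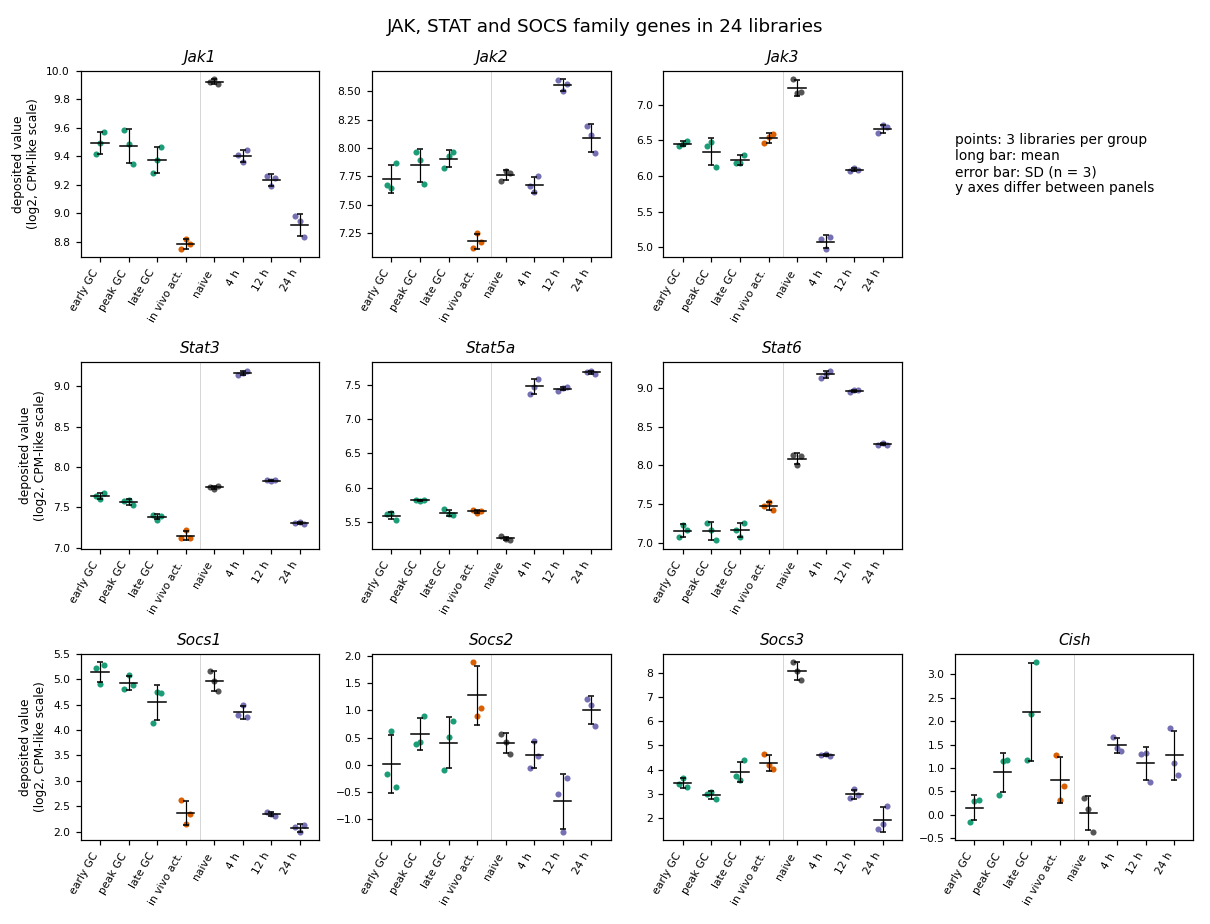
Deposited log2 value (y axis, CPM-like scale, its range differing between panels) of each of the 10 genes in the 3 libraries of each of 8 groups (x axis), with the mean and SD. Jak3 is lowest at 4 h and Jak2 highest at 12 h, Stat3 and Stat6 are highest at 4 h, Stat5a is high at all 3 in vitro times, and the naive libraries of Socs3 lie above every other library.

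The 3 STAT genes rose together at 4 h and then parted. Stat3, which carries interleukin 6, 10 and 21 signals, was at 7.76, 7.73 and 7.76 in naive libraries, 9.15, 9.17 and 9.20 at 4 h, 7.84, 7.82 and 7.84 at 12 h, and 7.30, 7.32 and 7.29 at 24 h. Its 4 h libraries stood above every other library, and the 24 h libraries lay below the naive ones. The log2 fold change over naive cells was 1.42 ± 0.04 at 4 h (SE; adjusted p = 3.03e-19), 0.08 ± 0.04 at 12 h (adjusted p = 0.0543) and -0.44 ± 0.04 at 24 h (adjusted p = 2.62e-10). From this high level the 12 h value fell by 1.34 ± 0.04 log2 relative to 4 h (adjusted p = 1.24e-17). In cells from the animal Stat3 was at 7.64 ± 0.04 in early GC, 7.57 ± 0.03 in peak GC, 7.38 ± 0.03 in late GC and 7.15 ± 0.06 in in vivo activated cells, against 7.75 ± 0.02 in naive cells (SD, n = 3 each). It fell in all 4 groups, most in in vivo activated cells (-0.60 ± 0.04, SE; adjusted p = 1.76e-12). The early GC fall of -0.11 ± 0.04 log2 (adjusted p = 0.0128) was lost without early GC replicate 2 (adjusted p = 0.0606) and with only the 2 groups fitted (adjusted p = 0.0820).

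Stat6, the main STAT of interleukin 4, was at 8.09 ± 0.07 in naive cells, 9.18 ± 0.05 at 4 h, 8.96 ± 0.01 at 12 h and 8.27 ± 0.02 at 24 h (SD, n = 3 each). It stayed above naive cells at all 3 times, by 1.09 ± 0.06, 0.88 ± 0.06 and 0.19 ± 0.06 log2 (SE; adjusted p = 2.28e-14, 1.02e-12 and 0.00439). In cells from the animal the direction was the other. Stat6 was at 7.08, 7.24 and 7.17 in early GC, 7.26, 7.16 and 7.03 in peak GC, 7.16, 7.08 and 7.26 in late GC and 7.48, 7.53 and 7.43 in in vivo activated libraries, against 8.14, 8.01 and 8.12 in naive libraries. No GC library overlapped with a naive one, and the GC level was 1.90-fold lower at the early stage (adjusted p = 4.98e-13). In vivo activated cells lay between GC and naive cells, 1.53-fold below naive cells (adjusted p = 9.44e-10). Stat6 overlaps Nab2 in the annotation.

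Stat5a, which carries interleukin 2 and 7 signals, rose in all 7 groups relative to naive cells. It was at 5.29, 5.25 and 5.24 in naive libraries, 7.37, 7.47 and 7.59 at 4 h, 7.42, 7.46 and 7.46 at 12 h, and 7.68, 7.71 and 7.66 at 24 h. It thus kept its level where Stat3 and Stat6 came down. The fold change over naive cells was 4.66 at 4 h (adjusted p = 1.49e-20) and 5.38 at 24 h (adjusted p = 5.86e-22). In GC and in vivo activated cells the rise was smaller, with means of 5.59, 5.82, 5.63 and 5.65 in early GC, peak GC, late GC and in vivo activated cells, against 5.26 in naive cells. No library of those 4 groups overlapped with the naive ones.

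Stat5a has a near-identical neighbor, Stat5b, so that reads of the pair could be split unevenly by the counting and either value alone is uncertain. The difference of Stat5a minus Stat5b within a library was 0.49 ± 0.09 log2 at 4 h, 0.91 ± 0.03 at 12 h and 1.10 ± 0.02 at 24 h, against -1.73 ± 0.02 in naive cells (SD, n = 3 each). It was -1.71, -1.75 and -1.77 log2 in the means of early, peak and late GC cells and -1.11 in in vivo activated cells. The difference was larger in vitro than in naive cells, while each GC mean differed from the naive mean by at most 0.04 log2. No correction for length was made, so its sign does not show which gene had more messenger. Exact permutation tests of this difference gave p = 0.1 for each in vitro time and for in vivo activated cells against naive cells, the smallest that 3 against 3 libraries allow (two-sided, n = 3 each, 7 such comparisons). The same exact test gave p = 0.9, 0.6 and 0.7 for early, peak and late GC cells. The ends of Stat5a and Stat3 also overlap by 72 bases on opposite strands. Stat3 fell at 12 h relative to 4 h while Stat5a moved by -0.03 ± 0.05 log2 (SE; adjusted p = 0.614). The part of the shared bases in either value was not tested.

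Socs3, an inhibitor known to act on receptors that use the gp130 chain and on Jak1 and Jak2, showed the widest range of the 10 genes. It was at 3.42, 3.65 and 3.28 in early GC, 3.01, 3.09 and 2.78 in peak GC, 3.72, 3.59 and 4.38 in late GC, and 4.64, 4.20 and 4.01 in in vivo activated libraries, against 8.44, 8.06 and 7.72 in naive libraries. In vitro it was at 4.60, 4.66 and 4.58 at 4 h, 2.82, 3.19 and 2.94 at 12 h, and 1.55, 1.75 and 2.51 at 24 h. Naive libraries stood above all 21 others. The level was 34.6-fold lower in peak GC cells (log2 fold change -5.11 ± 0.23, SE; adjusted p = 1.88e-14), 13.8-fold lower in in vivo activated cells (-3.79 ± 0.23, adjusted p = 3.27e-12), 11-fold lower at 4 h (-3.46 ± 0.23, adjusted p = 1.46e-11) and 70.1-fold lower at 24 h (-6.13 ± 0.23, adjusted p = 4.65e-16). In bulk samples, fewer cells with the messenger and less of it per cell cannot be told apart. All values are also shares of a fixed library total, and the amount of RNA per cell was not measured. A lower value of any gene therefore need not mean less messenger per cell.

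The range of the Socs3 group means, 6.13 log2, was larger than that of 95.1% of tested genes, whose median range was 1.66 log2. A list of 8 immediate early genes (Fos, Fosb, Jun, Junb, Egr1, Nr4a1, Ier2 and Dusp1) was chosen after their values were known, so its counts are a description and support nothing. Of the 8, 7 had their highest mean in naive cells, as did 22.3% of all tested genes. In 6 of the 8 every naive library lay above every other library, as in 15.8% of all tested genes. Nr4a1 was at 7.54 ± 0.23 in peak GC cells, against 11.63 ± 0.05 in naive cells (SD, n = 3 each). Egr1 was the exception, with 8.58 ± 0.56 in peak GC cells, against 8.15 ± 0.28 in naive cells.

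Socs1, an inhibitor that binds the kinases directly and is induced by interferons and interleukin 4, split the activated groups. It was at 5.22, 4.91 and 5.28 in early GC, 4.80, 5.08 and 4.89 in peak GC and 4.14, 4.75 and 4.74 in late GC libraries, against 5.16, 4.97 and 4.76 in naive libraries. It was at 2.62, 2.15 and 2.34 in in vivo activated libraries. In vitro it was 4.35 ± 0.12 at 4 h, 2.35 ± 0.05 at 12 h and 2.07 ± 0.07 at 24 h (SD, n = 3 each). Early and peak GC libraries overlapped with naive ones, and the in vivo activated, 12 h and 24 h libraries lay far below.

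The log2 fold change of Socs1 over naive cells was 0.17 ± 0.15 in early GC cells (SE; adjusted p = 0.290) and -0.04 ± 0.15 in peak GC cells (adjusted p = 0.805), and neither passed. It was -2.59 ± 0.15 in in vivo activated cells (adjusted p = 1.37e-13), -0.62 ± 0.15 at 4 h (adjusted p = 0.000577), -2.62 ± 0.15 at 12 h (adjusted p = 8.57e-14) and -2.89 ± 0.15 at 24 h (adjusted p = 9.12e-15). The fall between 4 h and 12 h was 4.00-fold (adjusted p = 7.70e-11). Peak GC cells had 5.87-fold more Socs1 than in vivo activated cells (log2 fold change 2.55 ± 0.15, adjusted p = 3.89e-13), and no library overlapped, as for 69.9% of all tested genes.

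Socs2, known for restraining growth hormone signals, and Cish, an early target of Stat5 that binds receptors, were near 1 CPM, where the values scatter most. Socs2 ran from -1.24 to 1.89 log2 over the 24 libraries. It rose in in vivo activated cells, with 1.28 ± 0.54, against 0.40 ± 0.19 in naive cells (SD, n = 3 each; adjusted p = 0.0148), and fell at 12 h relative to naive cells (-1.08 ± 0.32, SE; adjusted p = 0.00345). The first of these calls was lost without in vivo activated replicate 1 (0.57, adjusted p = 0.124) or naive replicate 3 (adjusted p = 0.054).

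Cish was at 1.66, 1.43 and 1.36 at 4 h, 1.29, 1.32 and 0.70 at 12 h and 1.86, 1.10 and 0.85 at 24 h, against 0.36, 0.12 and -0.36 in naive libraries. No in vitro library overlapped with a naive one. The rise was 2.73-fold at 4 h (log2 fold change 1.45 ± 0.38, SE; adjusted p = 0.00159), 2.09-fold at 12 h (adjusted p = 0.0143) and 2.35-fold at 24 h (adjusted p = 0.00510). The 12 h call was lost without naive replicate 3 (adjusted p = 0.0697) or 12 h replicate 2 (adjusted p = 0.0503). So at 24 h Cish was above naive cells while Socs1 and Socs3 were below them.

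Levels can be set against each other only per length, as log2 CPM per kilobase of exon. The length used joins all annotated exons of a gene and may exceed the messenger present, so close ranks are uncertain. On that scale Jak1 was the highest of the 10 in naive cells (7.07) and Socs3 came next (6.54), ahead of Stat6 (5.95). At 4 h Stat6 was highest (7.04), then Jak1 (6.55) and Stat3 (5.92), and Jak3 was eighth (2.66). In peak GC cells Jak1 (6.62), Jak2 (5.52) and Stat6 (5.01) led, and Socs3 was eighth (1.43). Cish and Socs2 were the lowest in all 3 of these groups.

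Across in vitro time, 8 of the 10 genes passed at 12 h against 4 h (61.9% of all tested genes) and 8 at 24 h against 12 h (57.3%). Jak2 and Jak3 rose and Jak1, Stat3, Stat6, Socs1, Socs2 and Socs3 fell in the first of these steps. The first-step calls of Jak1 (-0.17 ± 0.06, SE; adjusted p = 0.0115) and Socs2 (-0.86 ± 0.32, adjusted p = 0.0224) were lost without 12 h replicate 2 (adjusted p = 0.0528 and 0.148), and that of Socs2 also without 4 h replicate 2 (adjusted p = 0.0857). In the second, Jak3, Stat5a and Socs2 rose and Jak1, Jak2, Stat3, Stat6 and Socs3 fell. Socs1 changed by -0.28 ± 0.15 log2 in the second step and did not pass (SE; adjusted p = 0.11). Jak2 was the gene that rose in the first step and fell in the second, by 0.47 ± 0.07 log2 (adjusted p = 9.46e-06).

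The 3 GC stages were compared with each other. Only Stat5a passed in peak against early GC cells (1 of 10, with 13.2% of all tested genes), by 0.23 ± 0.05 log2 (SE; adjusted p = 0.00318), and with those 2 groups fitted alone it did not pass (adjusted p = 0.103). In late against peak GC cells 5 of 10 passed (32.6% of all tested genes). Socs3 and Cish rose, and Stat3, Stat5a and Socs1 fell. With those 2 groups fitted alone Socs3 passed, while Cish, Stat3, Stat5a and Socs1 did not (adjusted p = 0.132, 0.0803, 0.116 and 0.170). In late against early GC cells 4 of 10 passed (35.1%): Cish rose, and Jak3, Stat3 and Socs1 fell. Stat3 was lower at the late stage than at the early one by 0.25 ± 0.04 log2 (SE; adjusted p = 3.40e-05) and no library overlapped, as for 40.7% of all tested genes. The Socs1 call was lost with those 2 groups fitted alone (adjusted p = 0.0532). The Jak3 call (-0.23 ± 0.07, adjusted p = 0.016) was lost without early GC replicate 3, late GC replicate 1 or late GC replicate 2 (adjusted p = 0.0529, 0.0537 and 0.0547).

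Cish was at 1.17, 2.15 and 3.26 in late GC libraries, against 0.43, 1.15 and 1.16 in peak GC libraries and -0.16, 0.30 and 0.32 in early GC libraries. The late libraries spread over a wider range than any other group, SD 1.04. The log2 fold change was 1.28 ± 0.38 over peak GC cells (SE; adjusted p = 0.0137) and 2.04 ± 0.38 over early GC cells (adjusted p = 0.000306), with 2.16 ± 0.38 over naive cells (adjusted p = 2.15e-05). Without late GC replicate 3 the rise over peak GC cells was 0.75 log2 and did not pass (adjusted p = 0.111), nor did it without peak GC replicate 1 (adjusted p = 0.0713). The rise of peak GC over naive cells was 0.88 ± 0.38 log2 (adjusted p = 0.0400), and it was lost without a filter on low values (adjusted p = 0.108) and with the replicate number as a block (adjusted p = 0.0530). It was also lost without peak GC replicate 2 or 3 (adjusted p = 0.116 and 0.117) or naive replicate 2 or 3 (adjusted p = 0.0621 and 0.153).

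Socs3 rose in late over peak GC cells by 0.94 ± 0.23 log2 (SE; adjusted p = 0.00428), and no library overlapped, as for 36.2% of all tested genes. Socs1 fell by 0.38 ± 0.15 log2 (adjusted p = 0.0481). Late GC replicate 1 was the lowest GC library for Socs1. Without it the difference was -0.18 log2 (adjusted p = 0.336), with the block the adjusted p was 0.0694, and it was also lost without peak GC replicate 2 (adjusted p = 0.169) or 3 (adjusted p = 0.0674). The fall of Socs1 in late GC against naive cells (-0.42 ± 0.15, adjusted p = 0.0109) was lost without late GC replicate 1 (-0.22, adjusted p = 0.132) or naive replicate 1 (-0.32, adjusted p = 0.0683), and with only the 2 groups fitted (adjusted p = 0.0556).

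Markers of some other cells were higher at the late stage than at the peak, in part with overlapping libraries. The dendritic cell sum was 66.5 to 69.2 CPM in late GC libraries, against 60.2 to 74.1 CPM in peak GC libraries. The plasma cell sum was 373 to 519 CPM in late GC libraries, against 262 to 560 CPM in peak GC libraries. The macrophage and monocyte sum was 2065, 685 and 473 CPM in late GC replicates 1, 2 and 3, against 114, 147 and 265 CPM in peak GC libraries. Of the 8 measured markers of that list, 7 had a mean of at least 1 CPM in late GC cells and 6 in peak GC cells, and none was at the floor. The neutrophil sum was 1012, 204 and 72.6 CPM in late GC libraries, against 20.7, 26.5 and 88.1 CPM in peak GC libraries. The erythroid sum was 510, 330 and 396 CPM in late GC libraries, against 78.1, 97.7 and 78.6 CPM in peak GC libraries, which did not overlap, and 139, 370 and 262 CPM in early GC libraries. The sum for natural killer (NK) cells was 31, 50.9 and 107.2 CPM in late GC libraries, against 22.8, 27.5 and 34.8 CPM in peak GC libraries. The NK sum was 26.0, 20.8 and 29.7 CPM in early GC libraries. In naive libraries it was 80.0, 72.7 and 47.0 CPM, with Cish at 0.36, 0.12 and -0.36 log2. The T-cell sum was 201.7, 203.4 and 241.1 CPM in late GC libraries, against 194.0, 223.4 and 179.0 CPM in peak GC libraries. Cish was highest in late GC replicate 3. Of the late libraries, that one had the lowest macrophage and neutrophil sums and the highest NK and T-cell sums. The macrophage markers Csf1r and Lyz2 were above peak GC cells in every late library, while C1qa was at 1.5, 1.07 and 0.76 log2 in late GC libraries, against 0.47, 1.01 and -1.03 in peak GC libraries. The part of these cells in the late GC values of Cish, Socs3 and Socs1 was not tested.

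**Figure D3:**
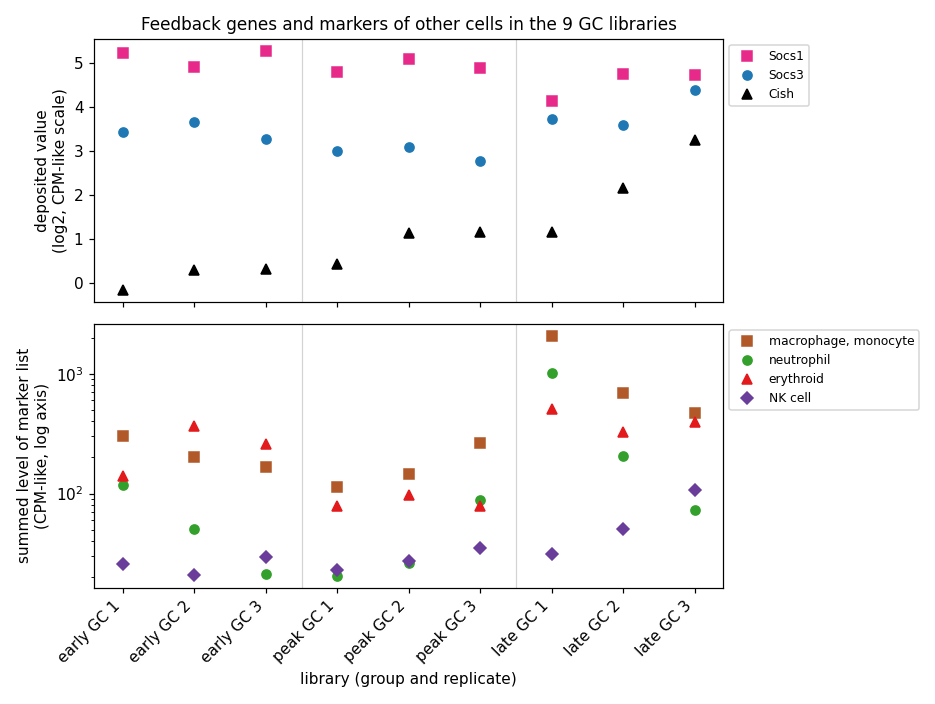
Deposited log2 values of Socs1, Socs3 and Cish (upper panel) and the summed level of 4 marker lists in CPM on a log axis (lower panel) in each of the 9 GC libraries (x axis). Cish reaches 3.26 in late GC replicate 3, while the macrophage sum is highest, at 2065 CPM, in late GC replicate 1.

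Peak GC cells and in vivo activated cells, both taken from the animal, differed in 9 of the 10 genes (69.2% of all tested genes). Jak1, Jak2, Stat3, Stat5a and Socs1 were higher in peak GC cells and Jak3, Stat6, Socs2 and Socs3 lower. Jak1 was higher by 0.69 ± 0.06 log2 (SE; adjusted p = 1.85e-10) and Jak2 by 0.67 ± 0.07 (adjusted p = 2.06e-08). Socs3 was 2.5-fold lower, at 2.96 ± 0.16 in peak GC cells and 4.28 ± 0.32 in in vivo activated cells (SD, n = 3 each; adjusted p = 3.49e-05). The calls of Jak3 (-0.19, adjusted p = 0.0245) and Socs2 (-0.71, adjusted p = 0.0497) did not hold up. That of Jak3 was lost without peak GC replicate 3 (-0.08, adjusted p = 0.255) or without in vivo activated replicate 2 or 3 (adjusted p = 0.0563 and 0.0943), and with only the 2 groups fitted (adjusted p = 0.102). That of Socs2 was lost with the block (adjusted p = 0.0676), with only the 2 groups fitted (adjusted p = 0.0549) and without peak GC replicate 1 or 2 (adjusted p = 0.132 and 0.123) or in vivo activated replicate 1 (adjusted p = 0.293).

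The genes around the 10 were counted in lists. Of all tested genes, 40.5% rose and 39.3% fell in peak GC cells, 39.2% rose and 40.1% fell in in vivo activated cells, 38.9% rose and 39.1% fell at 4 h, and 42.2% rose and 42.5% fell at 24 h. All 4 interferon receptor chains (Ifnar1, Ifnar2, Ifngr1 and Ifngr2) fell in peak GC cells, each at least 2-fold, with a median log2 fold change of -2.22, against 0.01 over all tested genes. All 4 also fell in in vivo activated cells (median -1.03, all genes -0.02) and at 24 h (median -1.84, all genes -0.01), and 3 of 4 fell at 4 h (median -0.42, all genes -0.01). Ifnar1, a chain of the type I interferon receptor, was at 5.07, 5.10 and 5.40 in peak GC libraries, against 7.43, 7.43 and 7.48 in naive libraries (log2 fold change -2.26 ± 0.08, SE; adjusted p = 2.64e-17).

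Of 9 chains of the gamma-chain, interleukin 4 and interleukin 13 receptors, 2 rose and 5 fell in peak GC cells, 2 rose and 5 fell in in vivo activated cells, 5 rose and 3 fell at 4 h, and 2 rose and 4 fell at 24 h. Il2rg, the gamma chain itself, was at 6.92 ± 0.09 in peak GC cells, against 9.06 ± 0.06 in naive cells (SD, n = 3 each; adjusted p = 7.76e-19). Il21r rose in peak GC cells by 0.56 ± 0.12 log2 (SE; adjusted p = 0.000293). Il2ra, the high-affinity chain of the interleukin 2 receptor, was at 7.90, 7.82 and 7.77 at 4 h, against 2.11, 2.02 and 1.84 in naive libraries (log2 fold change 5.84 ± 0.25, adjusted p = 8.39e-15). Il4ra fell by 0.67 ± 0.08 log2 at 4 h (adjusted p = 5.20e-08) and by 1.99 ± 0.08 at 24 h (adjusted p = 7.12e-17).

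Of 10 chains of the gp130, interleukin 10 and interleukin 12 families, 8 were tested. In peak GC cells 1 rose and 5 fell (median -1.83), with Il10rb at 2.78 in peak GC cells, against 6.37 in naive cells (adjusted p = 2.78e-20). At 24 h 1 rose and 7 fell (median -1.14). Of 14 cytokine ligands only 4 were tested, since the others were too low. Of these, 1 rose and 1 fell in peak GC cells, and 2 rose and 0 fell in in vivo activated cells. At 4 h 2 rose and 1 fell, and at 24 h 1 rose and 2 fell. Csf1, which is not a ligand of the receptor chains counted above, rose by 2.89 ± 0.25 log2 at 4 h (SE; adjusted p = 1.13e-09).

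**Figure D4:**
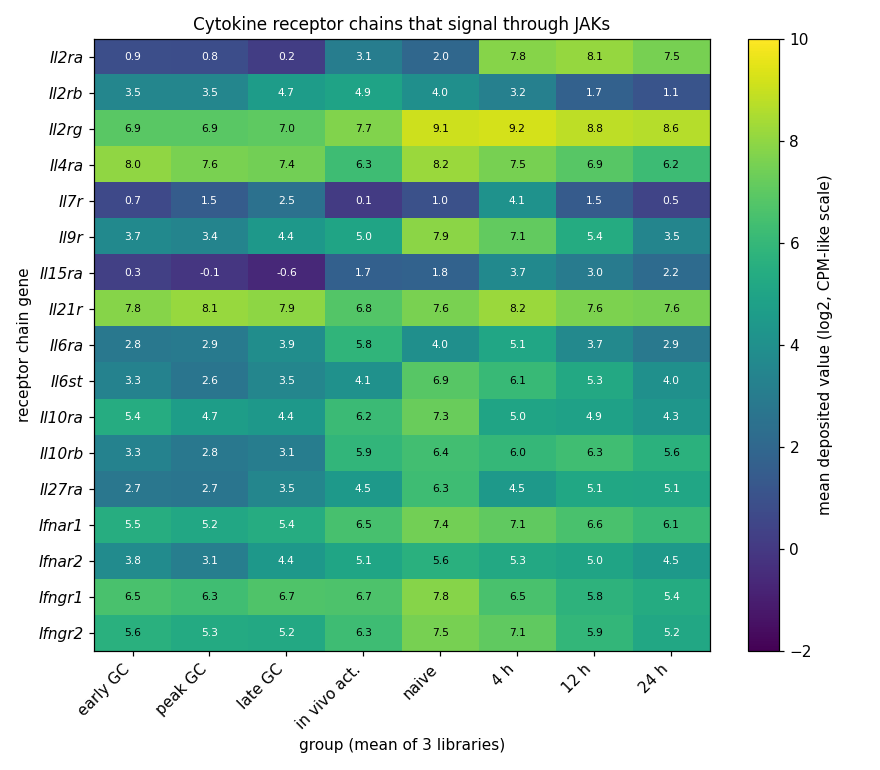
Mean deposited log2 value (color and number, CPM-like scale) of 17 cytokine receptor chains (y axis) in 8 groups of 3 libraries (x axis). Il2ra is high at the 3 in vitro times only, and Ifnar1, Ifnar2, Ifngr1 and Ifngr2 are higher in naive cells than in any other group.

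Other genes of the pathway were read in the same comparisons. In peak GC cells Stat5b rose by 0.58 ± 0.05 log2 (SE; adjusted p = 1.42e-10) and Stat4 fell by 3.94 ± 0.25 (adjusted p = 1.12e-11). Stat4 rose at 4 h by 1.84 ± 0.25 log2 (adjusted p = 1.46e-06). Of 7 further SOCS-box and adaptor inhibitors, 1 rose and 6 fell in peak GC cells, in in vivo activated cells and at 24 h. Sh2b2, an adaptor that binds Jak2, was the one that rose in all 3. Socs5 was at 2.66, 2.29 and 2.16 in peak GC libraries, against 6.18, 6.32 and 6.43 in naive libraries (log2 fold change -3.94 ± 0.10, adjusted p = 4.08e-20), and it fell by 1.20 ± 0.10 log2 at 4 h (adjusted p = 2.10e-10). Of 10 phosphatase and PIAS genes, 2 rose and 6 fell in peak GC cells, and 4 rose and 6 fell at 4 h, where Ptpn6, a phosphatase that acts on JAKs, fell by 1.25 ± 0.07 log2 (adjusted p = 8.63e-14).

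Genes known as STAT targets did not share one direction. Of 13 Stat5 and Stat3 targets, 5 rose and 8 fell in peak GC cells. At 4 h 5 rose and 6 fell, and at 24 h 6 rose and 7 fell. Bcl2l1, a survival gene, was at 6.74, 6.77 and 6.55 at 4 h, against 3.12, 3.07 and 3.11 in naive libraries (log2 fold change 3.59 ± 0.09, SE; adjusted p = 1.28e-19), and at 24 h it was up by 4.70 ± 0.09 (adjusted p = 3.74e-22). Pim3, a kinase gene, fell in peak GC cells by 2.22 ± 0.08 log2 (adjusted p = 2.57e-17).

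Of 7 tested Stat6 targets, 3 rose and 2 fell in peak GC cells, and 2 rose and 3 fell at 24 h. Ccl22, a chemokine gene, was at 8.04, 7.91 and 8.07 at 24 h, against -1.28, -1.60 and -1.67 in naive libraries, while Fcer2a, the low-affinity IgE receptor, fell by 2.31 ± 0.12 log2 at 24 h (SE; adjusted p = 8.86e-14).

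For each gene the 2 genes with the most similar pattern over the 8 group means were found by Pearson's r, as a description. They were Cacna1i and Ralgps1 for Jak1 (r = 0.997 and 0.994), Parg and Cox16 for Jak2 (0.929 and 0.906), and Map3k4 and Cd180 for Jak3 (0.977 and 0.960). They were Cisd2 and Tuft1 for Stat3 (0.986 and 0.973), Ywhag and Rnf219 for Stat5a (0.997 and 0.996), and Ipo8 and Tmem42 for Stat6 (0.994 and 0.993). For Socs1 they were Mob2 and Pi4k2a (0.992 and 0.986), and for Socs3 Ier5 and Utrn (0.988 and 0.984). For the low genes the likeness was less, with Tmco4 and Pcx for Socs2 (0.857 and 0.835) and Igf2bp3 and Nmnat3 for Cish (0.895 and 0.878). Among the 10 genes themselves, the highest r was 0.839 for Jak1 with Socs1 and the lowest was -0.761 for Jak3 with Stat3. All groups share the normalization, and the 8 points are group means of 3 libraries.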

How the data were processed

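RNA was measured in 24 libraries of sorted splenic B cells. Per the labels' protocols, TruSeq Stranded mRNA libraries were read as paired 75-base reads on a NextSeq 500. Per the submitters' processing notes, STAR 2.6.0c and Subread 1.6.2 with featureCounts were used on mm10, beside cutadapt 1.8.3, limma and FastQC 0.11.5. Their settings, such as strand in counting, are not given in the sources used here. The authors deposited log2 values on a CPM-like scale (2 to the value sums to 990678 to 1008194 per library), and the libraries share nearly one distribution, so precision from depth cannot be given.

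Genes with a log2 value of at least 0 (1 CPM) in at least 3 libraries were tested with limma 3.58.1 (R 4.3.3): one mean per group over all 24 libraries, variance trend, robust moderation, 16 residual degrees of freedom, 13 comparisons. Tables and figures used Python 3.11.15, pandas 2.3.3 and matplotlib 3.10.9; the script was tested on simulated data. The 10 genes, the 10 pathway lists and the marker lists were chosen with earlier results of these data known. Counts for 2 of the pathway lists are not reported here. Named list genes are up to 2 per direction with the smallest adjusted p in the peak GC, in vivo activated, 4 h and 24 h comparisons with naive cells, and per gene the 2 genes with the highest Pearson correlation over group means. Replicate numbers are not treated as pairing, since no label ties them, although their means over groups are equal in the deposited values. The alternatives were no filter, a stricter filter, log2(CPM + 1), median centring, no trend, a replicate block, the 2 groups alone, and leaving out each library.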

Additional observations from a re-analysis of the deposited data

How the results depend on the processing

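Of 1664 fold changes of the 10 genes under the alternatives, 1575 kept direction and side of the threshold, 52 lost the call, 14 gained it and 23 changed sign. All 23 sign changes came from leaving out 1 library, for folds near 0 that had not passed. Over these leave-outs the log2 fold change ran from -0.10 to 0.0088 for Jak2 and -0.085 to 0.27 for Cish in early GC against naive cells. It ran from -0.14 to 0.058 for Socs1 and -0.0017 to 0.26 for Socs2 in peak GC, and from -0.19 to 0.26 for Socs2 in late GC, against naive cells. It ran from -0.083 to 0.026 for Stat5a at 12 h against 4 h, -0.13 to 0.38 for Cish at 24 h against 12 h, and -0.035 to 0.44 for Cish in peak GC against in vivo activated cells. In peak against early GC cells it ran from -0.076 to 0.044 for Jak1 and -0.062 to 0.05 for Stat6, in late against peak GC cells from -0.022 to 0.12 for Jak2, -0.042 to 0.070 for Stat6 and -0.36 to 0.10 for Socs2, and in late against early GC cells from -0.038 to 0.052 for Stat6. With only the 2 groups fitted, 610 genes and 0 of the 10 passed in peak against early GC cells (1568 and 1 with all libraries), 1207 and 1 in late against peak (3877 and 5), and 2381 genes in late against early (4169). The same fit gave more genes elsewhere, as 8470 at 12 h against 4 h (7351 with all libraries) and 7915 at 24 h against 12 h (6812). At an unadjusted p under 0.05 the 2-group fit of peak against early GC cells called 3 of the 10. At an adjusted p under 0.05, the 2-group fits of other comparisons called 4 folds of the 10 genes that had not passed. Against naive cells these were Jak2 in late GC (adjusted p = 0.0443), Cish in in vivo activated cells (0.0309) and Socs2 at 24 h (0.0148). The last was Socs1 at 24 h against 12 h (0.0299). The cause was not tested. Leaving out 1 library gave 1034 to 1549 genes in peak against early GC cells, lowest without early GC replicate 2. With the stricter filter 3 of the 10 passed in late against peak GC cells; it leaves out Socs2 and Cish. Median centring shifted each library by at most 0.0106 log2.

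The replicate numbers have equal means over groups in the deposited values, differing by at most 0.0009 log2, so a difference between numbers had already been taken out. Deviations of same-numbered libraries correlated at -0.37 to 0.11, and in 0 of 13 comparisons did every pair exceed 0.1. Taking out that difference itself pushes these correlations below 0, so they show nothing about pairing in either direction. With the numbers as a block (14 residual degrees of freedom), 6 of the 10 genes passed in early GC against naive cells, as without it, and the calls lost were Cish in peak GC against naive cells (adjusted p = 0.0530), Socs1 in late against peak GC cells (0.0694) and Socs2 in peak GC against in vivo activated cells (0.0676). Without depth, the precision of the values near 1 CPM cannot be given.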
